A study of Mus musculus with 28 samples.

Results

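Globin transcripts differed widely between the 6 RNA-seq libraries of injured mouse sensory neurons, and the libraries were ranked by them. The sets were chosen by a measured value, the summed FPKM (sequenced fragments scaled to transcript length and to the depth of the library) of the 4 adult globin genes Hba-a1, Hba-a2, Hbb-bs and Hbb-bt. The 3 libraries with the highest sum were male replicate 3, female replicate 2 and female replicate 3, and the 3 with the lowest were male replicate 1, male replicate 2 and female replicate 1. These 6 are all the nerve-injury libraries of a series of 28 samples, of which 22 are naïve libraries. Every library of both sets came from adult C57BL/6J mice of matched age, on day 8 after partial sciatic nerve ligation (SNL), an operation in which part of the sciatic nerve is tied off. Lumbar dorsal root ganglia of the operated side were taken from 2 mice per library, after perfusion with saline, and neurons were enriched by magnetic sorting (MACS), which removes labelled non-neuronal cells. The females had their estrus cycle identified. The label of each library names erythrocytes as a contaminant, and the methods describe the sorted neurons as small-diameter nociceptive fibres. The naïve libraries (11 male and 11 female) came from AdvGFP reporter mice, in which the advillin promoter drives the fluorescent protein, and were sorted by flow cytometry, with satellite glia named as the contaminant. The methods state that some naïve samples were trigeminal rather than lumbar ganglia, while the labels call all of them dorsal root ganglion neurons.

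The summed globin level was 18642, 9114 and 6743 FPKM in the high-globin libraries (male replicate 3, female replicate 2 and female replicate 3), against 2284, 1596 and 552 FPKM in the low-globin libraries (male replicate 1, male replicate 2 and female replicate 1). All values per library below follow this order. The boundary ran between female replicate 3 and male replicate 1, a 2.95-fold step, while the highest and the lowest library differed 33.8-fold. Globins made up 1.16 to 2.90% of all FPKM in the high-globin libraries and 0.0932 to 0.384% in the low-globin libraries. These values set the groups and are a description. Sensory neuron genes were abundant throughout: Uchl1, a neuronal deubiquitinase, was at 1689, 2221 and 1895 FPKM in the high-globin libraries, against 1664, 1767 and 2226 FPKM in the low-globin libraries.

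Mature red blood cells carry little RNA beyond what served haemoglobin production. Globin chains bind haem, whose synthesis in the erythroid lineage starts with the enzyme encoded by Alas2, while other cells use Alas1. Late red cell precursors also express genes for membrane proteins, for mitochondrial iron import and for glycolytic control of oxygen release. Injured sensory neurons, in turn, switch on a regeneration-associated programme that includes Atf3, Sox11 and several neuropeptides. The ranking asks which of these and other genes moved with globin.

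The same split of the libraries ran through several technical measures. RIN, the RNA integrity number, was 5.8, 7.4 and 8.1 in the high-globin libraries and 8.4, 8.2 and 9.1 in the low-globin libraries. Input reads numbered 33111426, 34093541 and 30544219 in the high-globin libraries, against 50649730, 40789079 and 50230944 in the low-globin libraries, and 80.1 to 84.4% against 89.0 to 89.8% of them mapped uniquely. The sets overlapped in none of these 3 measures. Between 11184 and 11321 genes reached 1 FPKM in the high-globin libraries, against 10416 to 10812 in the low-globin libraries, while 136 to 320 against 94 to 110 of the expressed genes were listed at 0. The identification numbers in the library labels also separate the sets, and their meaning is not given. Globin level, RNA integrity, depth and mapping cannot be told apart in these 6 libraries, nor can fewer cells of a type be told apart from less RNA per cell. Samples were prepared in sex-controlled batches of 2, and the sources do not say which libraries shared a batch.

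**Figure D1:**
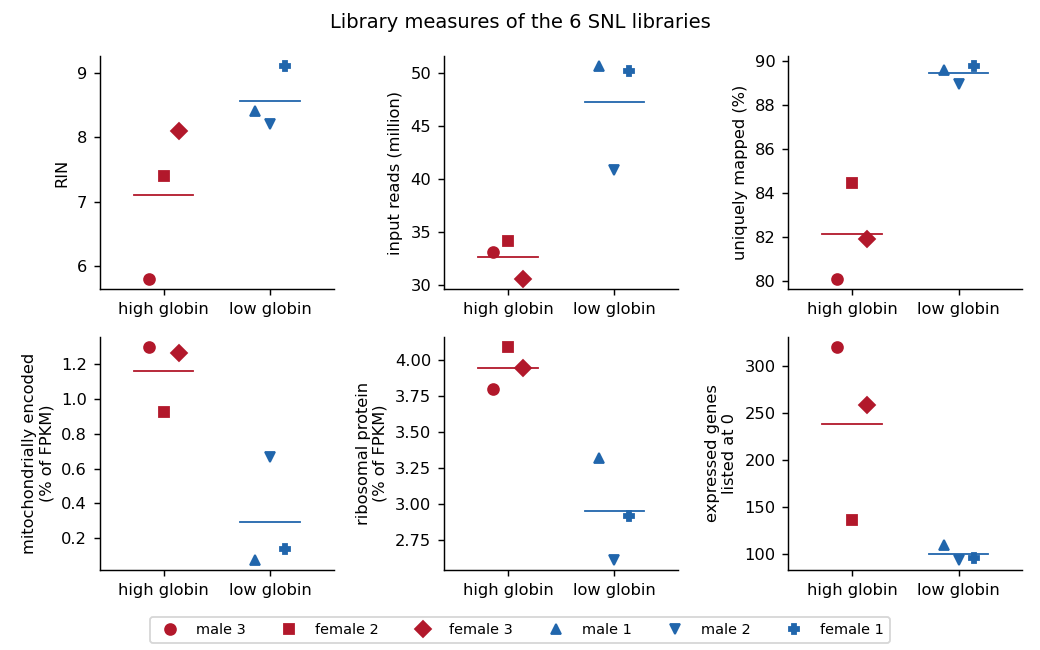
RIN, input reads, uniquely mapped reads, share of FPKM from mitochondrially encoded genes, share from cytosolic ribosomal protein genes, and expressed genes listed at 0, for the 3 high-globin libraries (left in each panel) and the 3 low-globin libraries (right). Each symbol is 1 library and each line the mean of its set, and the sets do not overlap in any of the 6 panels: RIN reached at most 8.1 in the high-globin set and at least 8.2 in the low-globin set.

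Differences between the sets were expressed as the mean log2(FPKM + 1) of the high-globin libraries minus that of the low-globin libraries, with the standard error from the spread within the sets (n = 3 each). Genes with at least 1 FPKM in at least 2 libraries of 1 sex were called expressed, 11303 of 45952. A gene was called apart when every library of 1 set lay above every library of the other. Of the expressed genes 2028 (17.9%) were apart and higher in the high-globin set and 1047 (9.26%) were apart and lower, and the median difference was 0.077. With a difference of at least 1 on the log2 scale required as well, these were 394 genes (3.49%) higher and 116 (1.03%) lower. The ranking used this contrast, so no test was run on it and nothing is read from these shares. The direction of the balance depended on scaling. Higher genes were 66.0% of those apart as deposited, 49.1% after median-of-ratios scaling and 46.3% after quantile normalization, where the median difference of all genes was -0.030 and -0.062. A list median is therefore best read against the median of all genes.

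Among red cell genes, a few followed globin closely and most did not. Over the 4 red cell lists (membrane, haem and iron, maturation and enzymes, transcription), 45 of 64 genes were expressed. Of these, 14 (31.1%, against 17.9% of all expressed genes) were apart and higher, 5 (11.1%, against 9.26%) were apart and lower, and 26 overlapped. Their median difference was 0.19, beside 0.077 for all expressed genes. The lists differed: of 18 maturation and enzyme genes, 10 (55.6%) were apart and higher and 2 (11.1%) lower, with a median of 0.45. Of 9 membrane genes, 1 (11.1%) was apart and higher and 1 (11.1%) lower, with a median of 0.075. The median of the haem and iron list was -0.066. Members of other lists named beyond the 3 with the highest mean FPKM were picked after their values were seen.

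Alas2, the erythroid form of 5-aminolevulinate synthase, carries out the first step of haem synthesis. The gene (ENSMUSG00000025270) lies on chromosome X (mm10, chrX:150547375-150570638) and is otherwise silent in most tissues. Alas2 was at 248.9, 108.3 and 89.7 FPKM in the high-globin libraries, against 38.3, 21.8 and 8.35 FPKM in the low-globin libraries. The 6 libraries stood in the same order for Alas2 as for globin. The difference was 2.74 ± 0.75 (SE), a 6.53-fold ratio of the set means, and it was 2.29 without male replicate 3. Per 1000 FPKM of globin, Alas2 was at 13.4, 11.9 and 13.3 FPKM in the high-globin libraries, against 16.8, 13.7 and 15.1 FPKM in the low-globin libraries. The ratio thus varied 1.41-fold across libraries in which the Alas2 level varied 29.8-fold. Of 10468 expressed genes with a mean of at least 1 FPKM and no library at 0, Alas2 had the steadiest ratio to globin. Col7a1, a collagen of anchoring fibrils, came next with a 2.33-fold range of the ratio. Gm8430 and the pseudogene Rps12-ps3 held ranks 3 and 4 of this order, and Trim10, Fam46c and Bpgm ranks 5, 6 and 7. The order was thus not made up of red cell genes alone.

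The promoters of 3 of the genes in this order of libraries are shown because they carry the letters that GATA factors bind, a class that includes the erythroid regulator GATA1. Each runs from 250 bases before to 50 bases after the transcription start, 5′ to 3′ on the gene's strand, from RefSeq on GRCm38.p6, with matches to AGATAA or TGATAA (either strand) in capitals. Alas2 lies at chrX:150547167-150547466 on the plus strand, Hbb-bs at chr7:103827879-103828178 on the minus strand and Trim10 at chr17:36869324-36869623 on the plus strand.
Alas2: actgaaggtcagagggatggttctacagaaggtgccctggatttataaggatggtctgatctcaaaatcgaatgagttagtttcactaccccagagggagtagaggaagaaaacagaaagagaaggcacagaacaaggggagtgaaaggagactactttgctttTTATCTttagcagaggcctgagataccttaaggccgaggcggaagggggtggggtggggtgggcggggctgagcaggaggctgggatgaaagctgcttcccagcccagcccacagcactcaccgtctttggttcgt
Hbb-bs: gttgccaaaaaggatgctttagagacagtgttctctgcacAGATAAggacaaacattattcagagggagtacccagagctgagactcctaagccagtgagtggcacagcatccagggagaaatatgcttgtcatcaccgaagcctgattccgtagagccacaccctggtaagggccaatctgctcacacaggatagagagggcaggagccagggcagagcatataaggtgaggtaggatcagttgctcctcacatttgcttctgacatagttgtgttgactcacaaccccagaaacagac
Trim10: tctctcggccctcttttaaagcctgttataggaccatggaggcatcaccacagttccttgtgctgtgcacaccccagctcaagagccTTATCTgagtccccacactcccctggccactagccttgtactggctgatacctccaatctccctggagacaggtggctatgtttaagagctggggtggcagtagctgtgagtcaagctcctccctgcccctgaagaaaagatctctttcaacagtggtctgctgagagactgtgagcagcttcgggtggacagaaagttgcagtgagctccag

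Of 14 genes looked up, the 4 globins and 10 red cell genes picked after their values were seen, 10 had a promoter in the table, with 12 promoters in all. AGATAA or TGATAA was found in 6 of the 12, and in 18.6% of 32851 promoters of the same length. These 6 were the promoters of the ranking genes Hba-a1, Hba-a2 and Hbb-bs, those of Alas2 and Trim10, and a promoter of Isg20. CACCC on either strand, the letters bound by KLF factors, was found in 10 of the 12 and in 57.5% of all. The globins set the ranking, and the Hba-a1 and Hba-a2 promoters have nearly the same sequence. The shares of the 12 are therefore not read against those of all promoters. A match is a description of the sequence and not evidence of a bound site.

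Bpgm, which makes the bisphosphoglycerate that lowers the oxygen affinity of haemoglobin, was at 70.7, 46.9 and 32.8 FPKM in the high-globin libraries, against 27.7, 11.4 and 7.78 FPKM in the low-globin libraries (difference 1.74 ± 0.60). Here too the order of the libraries was that of globin, but the range was narrower, 9.09-fold. Trim10, a protein of the tripartite motif family needed for terminal erythroid differentiation, was at 7.22, 3.98 and 2.65 FPKM in the high-globin libraries, against 2.06, 1.43 and 0.703 FPKM in the low-globin libraries. Slc25a37, the mitoferrin that brings iron into mitochondria for haem, was at 5.94, 5.195 and 5.103 FPKM in the high-globin libraries, against 1.89, 2.02 and 1.36 FPKM in the low-globin libraries, a difference of 1.22 ± 0.12. Bnip3l, which marks mitochondria for removal in maturing red cells and is also used by other cells, was at 53.8, 82.4 and 79.3 FPKM in the high-globin libraries, against 41.9, 29.1 and 34.1 FPKM in the low-globin libraries. Within the high-globin set it was lowest in male replicate 3, the library with the most globin. Car2, a carbonic anhydrase also used by neurons, and Tspo2, an erythroid relative of the mitochondrial cholesterol-binding protein, differed by 0.87 ± 0.42 and 0.84 ± 0.25. Gpx1 and Isg20 were apart and higher as well, by 0.63 ± 0.11 and 0.88 ± 0.25.

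**Figure D2:**
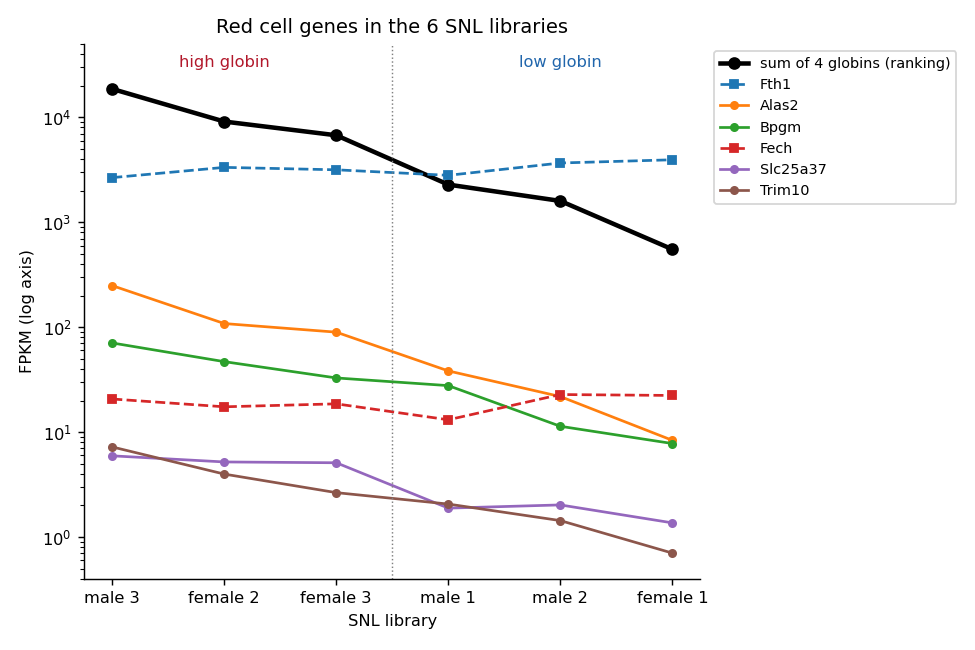
FPKM on a log axis of the summed globins (black, used for the ranking) and 6 red cell genes in the 6 SNL libraries, ordered from the highest to the lowest globin sum, with the high-globin libraries left of the dotted line and the low-globin libraries right of it. Alas2 runs parallel to the globin sum, Bpgm, Trim10 and Slc25a37 slope less steeply, and Fth1 and Fech (dashed squares) do not follow it.

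Most of the remaining genes of haem and iron handling, many of which all cells use, overlapped between the sets, as most expressed genes did. Of 16 expressed genes of this list 11 overlapped, 3 (18.75%, against 17.9% of all genes) were apart and higher and 2 (12.5%, against 9.26%) lower. Fech, which inserts iron into the haem ring, was at 20.7, 17.4 and 18.6 FPKM in the high-globin libraries, against 13.1, 22.8 and 22.4 FPKM in the low-globin libraries. Fth1, the ferritin heavy chain that stores iron, was at 2663, 3335 and 3161 FPKM in the high-globin libraries, against 2800.4, 3671 and 3939 FPKM in the low-globin libraries. Urod, Uros, Alad, Cpox, Ftl1, Tfrc, Slc25a38 and Slc25a39 overlapped too, with differences between -0.42 and 0.22. Ppox was formally apart at a difference of 1.48 ± 1.14, but it was listed at 0 in male replicate 2 and at 9.31 to 13.97 FPKM in every other library. Such a 0 in an otherwise steady gene can be a failed estimate.

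Some genes of the red cell lists were lower where globin was high. Steap3 (mm10, chr1:120190757-120272705), a ferrireductase of the transferrin cycle that is also induced by p53, was at 38.4, 50.9 and 24.1 FPKM in the high-globin libraries, against 82.8, 82.1 and 106.8 FPKM in the low-globin libraries (difference -1.29 ± 0.33). Hmox1, the haem oxygenase that breaks haem down, was at 61.5, 44.7 and 52.8 FPKM in the high-globin libraries, against 97.2, 109.7 and 78.8 FPKM in the low-globin libraries (difference -0.83 ± 0.19). Both stood apart with every high-globin library below every low-globin library. Cat, the catalase that removes hydrogen peroxide, was lower by -0.44 ± 0.11, and Ermap, a blood group protein, by -0.41 ± 0.10 near the detection limit. Ermap reached 1 FPKM in low-globin libraries only, the set through which it passed the filter.

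The band 3 anion exchanger and erythroid transcription factors were near the detection limit. Slc4a1, which encodes band 3, was at 3.39, 4.06 and 0.882 FPKM in the high-globin libraries, against 2.28, 1.702 and 1.09 FPKM in the low-globin libraries, and overlapped. Gata1, Klf1, Tal1, Gfi1b, Nfe2 and Epor were not called expressed. Klf1, the factor that switches on adult beta-globin, was at 2.35, 1.51 and 0 FPKM in the high-globin libraries, against 0.143, 0.273 and 0.486 FPKM in the low-globin libraries. The 4 embryonic globin genes Hba-x, Hbb-y, Hbb-bh1 and Hbb-bh2 were listed at 0 in all 6 libraries. The ratio of alpha to beta globin FPKM was 0.536 to 0.640 in the high-globin libraries and 0.777 to 1.22 in the low-globin libraries. Only reads with a single match were kept by the authors, and 56.6 to 81.0% of the 75-base words of each globin transcript occur in another globin transcript, so the split of reads among globin genes is uncertain.

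Other blood cells left little signal. Pf4 and Ppbp, which define platelets, were listed at 0 in all libraries, and Itga2b, the integrin of platelets and the 1 expressed member of 13, overlapped. No macrophage or monocyte gene of 18 was expressed; the summed FPKM of that list was 13.3, 5.08 and 5.02 in the high-globin libraries, against 2.34, 2.63 and 2.92 in the low-globin libraries. Its defining genes C1qa and Csf1r were at 0 in 6 and 5 of the 6 libraries. Of 15 neutrophil genes 3 were expressed, with a list sum over all 15 of 9.52 to 15.6 FPKM in the high-globin set and 1.12 to 7.99 FPKM in the low-globin set. S100a8 and Retnlg reached 1 FPKM in high-globin libraries only, so that the expression filter let them in through the set in which they were high, and Ly6g overlapped. S100a8, an antimicrobial calcium-binding protein, was at 0.316, 2.95 and 3.498 FPKM in the high-globin libraries, against 0.254, 0.108 and 0.1699 FPKM in the low-globin libraries, and was thus lowest of the high-globin set in the library with the most globin. S100a9, which was not called expressed, had another order, at 4.76, 0.385 and 6.55 FPKM in the high-globin libraries, against 0.929, 0 and 0 FPKM in the low-globin libraries. Ccl5, a chemokine of lymphocytes, was at 23.6, 6.63 and 1.29 FPKM in the high-globin libraries, against 0.7999, 0.65 and 0 FPKM in the low-globin libraries, and it too passed the filter through the high-globin set alone. The other expressed lymphocyte genes, such as Ighm and Lck, overlapped, and the list sum ranged from 17.6 to 41.5 FPKM in the high-globin set and from 9.79 to 19.8 FPKM in the low-globin set.

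Glial markers did not move as 1 group. Of 18 satellite glia genes 6 were expressed, and 3 of these, Sparc, Dbi and Apoe, were apart and higher (17.9% of all expressed genes were). Apoe reached 1 FPKM in high-globin libraries only and thus passed the filter through that set. The list sum was 267.2 to 313.2 FPKM in the high-globin libraries and 183.8 to 252.9 FPKM in the low-globin libraries. Sparc, a secreted matrix glycoprotein, was at 19.5, 10.5 and 11.5 FPKM in the high-globin libraries, against 0.479, 5.11 and 0.792 FPKM in the low-globin libraries. Dbi, which binds acyl-CoA and is not confined to glia, was at 142.5, 158.4 and 104.2 FPKM in the high-globin libraries, against 69.8, 90.3 and 73.7 FPKM in the low-globin libraries. Apoe, the apolipoprotein of glia and macrophages, was at 3.14, 1.398 and 3.86 FPKM in the high-globin libraries, against 0.361, 0.805 and 0.374 FPKM in the low-globin libraries. The genes most particular to satellite glia were close to absent: Kcnj10, the potassium channel of these cells, did not exceed 0.0174 FPKM in any library. Fabp7, the brain fatty acid binding protein, was at 7.73, 0.722 and 0 FPKM in the high-globin libraries, against 0.357, 0.859 and 0.199 FPKM in the low-globin libraries, so that only male replicate 3 had more than 1 FPKM.

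Schwann cell and myelin genes gave a mixed picture. Pmp22, a peripheral myelin protein that other cells also express (mm10, chr11:63128982-63159547), was at 1119.8, 961.5 and 999.04 FPKM in the high-globin libraries, against 2803, 1915 and 2403 FPKM in the low-globin libraries. The sets lay far apart, at a difference of -1.19 ± 0.17, and Pmp22 was the 1 member of 10 expressed (10% lower, against 9.26% of all genes) that did not overlap. Mbp, the myelin basic protein, was at 253.4, 44.3 and 78.4 FPKM in the high-globin libraries, against 41.5, 52.8 and 38.7 FPKM in the low-globin libraries. It was highest in male replicate 3 and overlapped otherwise, and without that library the difference was 0.42 in place of 1.11. Pmp22 made up most of the list's FPKM, and the list sum was 1255 to 1579 FPKM in the high-globin set and 2253 to 3008 FPKM in the low-globin set. Of 5 expressed fibroblast and vascular genes, 1 (20%, against 17.9% of all genes), Rgs5, was apart and higher (difference 0.61 ± 0.27). Pdgfrb, Cd34, Dcn and Ly6c1 overlapped, with differences of -0.54, -0.079, 0.89 and 1.48. The list sum was 97.8 to 154.3 FPKM in the high-globin set and 64.8 to 92.8 FPKM in the low-globin set.

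**Figure D3:**
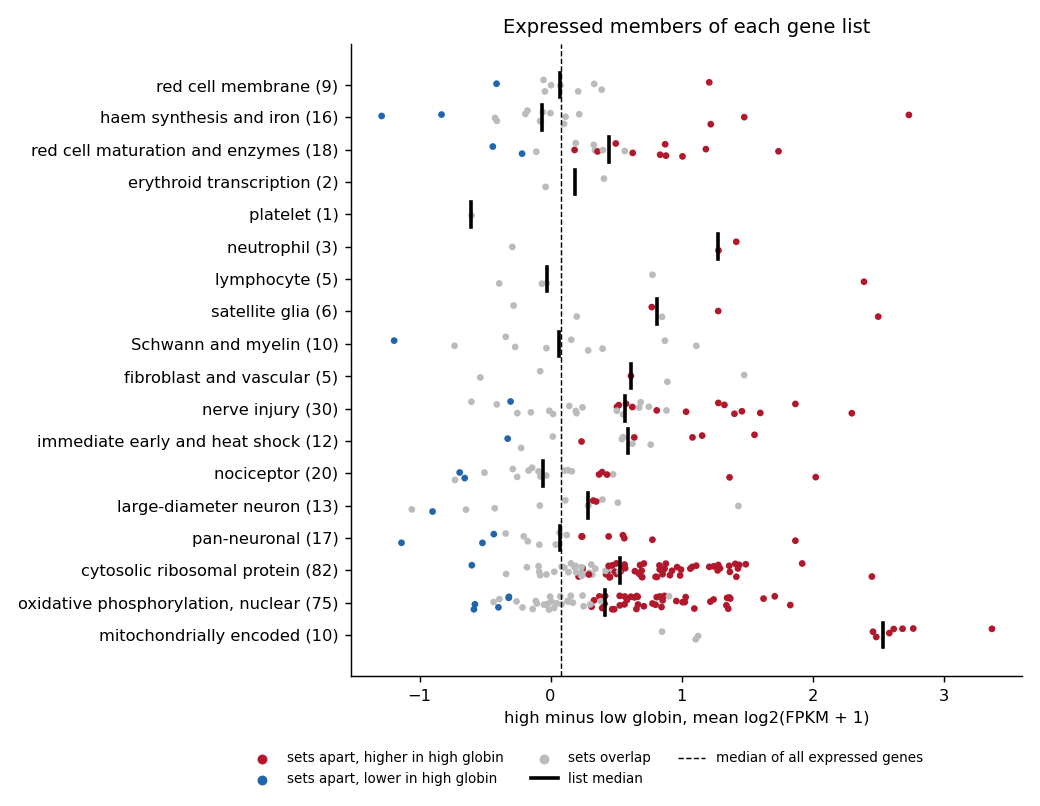
Difference in mean log2(FPKM + 1), high-globin minus low-globin libraries, for each expressed member (points; their number in brackets) of the gene lists, with list medians as black bars and the median of all 11303 expressed genes as a dashed line at 0.077. Red points are higher in every high-globin library, blue points lower in every one, and grey points overlap. Ribosomal, respiratory, mitochondrially encoded and red cell maturation and enzyme genes lie mostly right of the line. The red cell membrane and the haem and iron lists spread to both sides.

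Genes for ribosomal proteins, the protein part of the cytosolic ribosome, were mostly higher in the high-globin set. Of 82 expressed genes, 54 (65.9%, against 17.9% of all) were apart and higher and 1, Rps4l, was apart and lower, with a median difference of 0.53. Their share of FPKM was 3.80 to 4.09% in the high-globin libraries and 2.61 to 3.32% in the low-globin libraries. Rpl41, the shortest of these proteins and the most abundant transcript of the list, was at 879.4, 972.5 and 882.7 FPKM in the high-globin libraries, against 854.9, 678.1 and 834.4 FPKM in the low-globin libraries, a difference of 0.21. Rps9, a core protein of the small subunit, was at 789.1, 939.5 and 752.8 FPKM in the high-globin libraries, against 892.4, 549.3 and 762.8 FPKM in the low-globin libraries, and overlapped. The largest difference was that of Rpl22l1, a paralogue of Rpl22, at 136.8, 115.2 and 124.5 FPKM in the high-globin libraries, against 20.5, 27.3 and 19.1 FPKM in the low-globin libraries. The order of the libraries by ribosomal share was not that of globin: male replicate 3, with the most globin, had the lowest share of the high-globin set.

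Transcripts of the respiratory chain were mostly higher as well. Of 75 expressed nuclear genes of oxidative phosphorylation, 44 (58.7%, against 17.9%) were apart and higher and 5 (6.67%, against 9.26%) apart and lower, with a median difference of 0.42. Cox6b1, a subunit of cytochrome oxidase, was at 867.7, 973.5 and 899.9 FPKM in the high-globin libraries, against 639.2, 527.9 and 572.4 FPKM in the low-globin libraries. Cox6a1 and Cox8a, of the same complex and more abundant on average, overlapped with differences of -0.04 and 0.08. The 5 lower genes were Sdha, Ndufs7, Ndufv1, Uqcrc1 and Atp5a1, large or catalytic subunits of several complexes. Genes encoded in the mitochondrial genome showed the largest median difference of any list other than the ranking genes: 7 of 10 (70.0%, against 17.9% of all expressed genes) were apart and higher and none lower (9.26% of all), with a median of 2.54. mt-Cytb, cytochrome b of complex III, was at 2761, 1867 and 2104 FPKM in the high-globin libraries, against 153.5, 1262 and 256.3 FPKM in the low-globin libraries. Here male replicate 2 stood nearer to the high-globin set than to its own; without it the median of the list of mitochondrially encoded genes was 3.42, and without male replicate 1 it was 1.90.

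Transcript length and base composition moved with the split. Of 382 expressed genes whose principal transcript had at most 600 bases, 50.3% were apart and higher and 3.14% apart and lower, whereas among 7793 genes over 2000 bases these shares were 15.2% and 9.87%. The relation to length was not one-way: in the longest of 5 equal classes (4728 bases and over) 20.6% were apart and higher and 5.81% lower, against 13.1% and 12.5% in the class of 1531 to 2404 bases. By GC content of the transcript, 29.9% of the genes in the lowest of 5 equal classes were apart and higher and 2.35% lower, against 8.43% and 10.1% in the highest class. Ribosomal protein transcripts had a median length of 869 bases. Within that list, the median difference was 0.80 over the 19 genes of up to 600 bases, 0.56 over 35 further genes of up to 1000 bases and 0.45 over 28 longer genes. With the median shift of each length and GC class removed from each library, an adjustment chosen after seeing the data, the median was 0.35 for ribosomal protein genes, 0.23 for oxidative phosphorylation and -0.014 for all genes. Ribosomal protein pseudogenes, short copies that share reads with their parent genes and are therefore uncertain, with names ending in -ps and a number, were apart and higher in 30 of 38 expressed cases, beside 17.9% of all expressed genes and 50.3% of transcripts of up to 600 bases. The part of RNA integrity in these patterns was not tested.

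**Figure D4:**
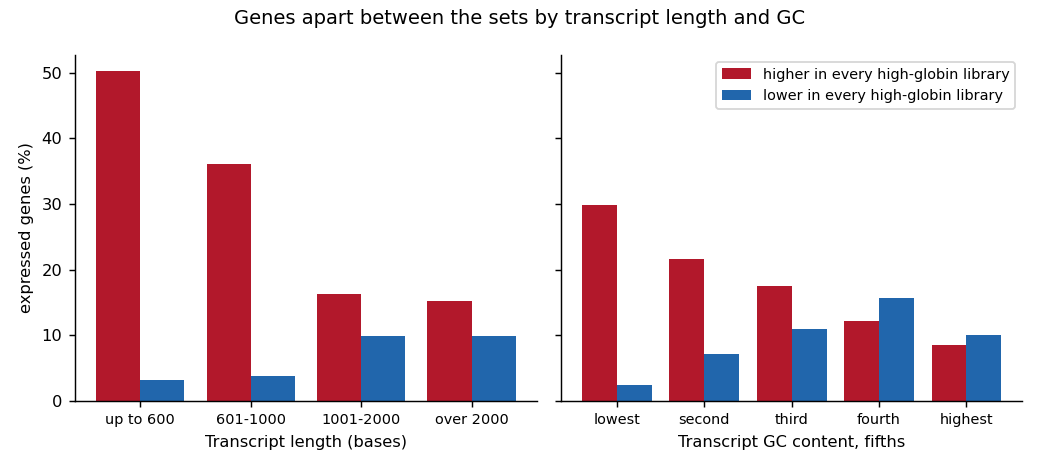
Share of expressed genes (%) that were higher in every high-globin library (red, left bar) or lower in every high-globin library (blue, right bar), by length class of the principal transcript (left panel) and by 5 equal classes of transcript GC content (right panel). The share of higher genes is 50.3% among transcripts of up to 600 bases and 15.2% among those over 2000 bases, and 29.9% in the lowest and 8.43% in the highest GC class.

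Injury-response genes also differed between the sets, in part. Of 30 expressed members of 35, 13 (43.3%, against 17.9% of all genes) were apart and higher and 1 (3.33%, against 9.26%), Bdnf, was apart and lower, with a median difference of 0.56. The 3 most abundant members overlapped. Gal, the neuropeptide galanin, was at 1278, 1081 and 1065 FPKM in the high-globin libraries, against 2248, 372.8 and 1177 FPKM in the low-globin libraries, with both extremes among the low-globin males. Sprr1a, a growth-associated protein of regenerating axons, was at 634.8, 486.4 and 916.3 FPKM in the high-globin libraries, against 441.98, 338.99 and 596.7 FPKM in the low-globin libraries. Nefl, the light neurofilament subunit, was at 1314, 1593 and 1797 FPKM in the high-globin libraries, against 1462, 3571 and 2535 FPKM in the low-globin libraries.

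Several classical members were higher in every high-globin library. Atf3, the transcription factor that marks axotomised neurons, was at 275.6, 131.8 and 272.4 FPKM in the high-globin libraries, against 94.8, 62.3 and 103.8 FPKM in the low-globin libraries (difference 1.33 ± 0.42). Nts, the neuropeptide neurotensin (mm10, chr10:102481760-102490418), was at 169.3, 128.9 and 168.4 FPKM in the high-globin libraries, against 29.1, 33.7 and 29.02 FPKM in the low-globin libraries. The difference of Nts, 2.30 ± 0.15, was the largest of the list and large beside the spread within either set. Npy, neuropeptide Y, was at 75.7, 45.5 and 162.3 FPKM in the high-globin libraries, against 35.3, 31.7 and 22.6 FPKM in the low-globin libraries. Anxa1, an anti-inflammatory annexin, Fgf3, a growth factor, Socs3, a brake on cytokine signalling, Sox11, a transcription factor of axon growth, and Csf1, the ligand that recruits microglia and macrophages, differed by 1.87, 1.601, 1.40, 1.28 and 1.03. All 5 were highest in female replicate 3, and all but Csf1 were lowest of the high-globin set in female replicate 2, an order unlike that of globin. Gap43, the growth cone protein, was at 494.9, 458.1 and 572.2 FPKM in the high-globin libraries, against 503.97, 337.4 and 504.9 FPKM in the low-globin libraries. With 1 library left out, the list median ranged from 0.44 to 0.76.

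Among 12 expressed immediate early and heat shock genes of 16, which respond within minutes to stimulation or cell handling, 5 (41.7%, against 17.9%) were apart and higher and 1 (8.33%, against 9.26%) apart and lower. Junb was at 8.04, 5.59 and 8.14 FPKM in the high-globin libraries, against 0.843, 2.29 and 2.53 FPKM in the low-globin libraries. Fos was at 16.1, 15.9 and 14.7 FPKM in the high-globin libraries, against 5.93, 4.23 and 12.1 FPKM in the low-globin libraries. Hspa8, the constitutive heat shock cognate protein, was the 1 lower gene, at 2523, 2281 and 2296 FPKM in the high-globin libraries and 3551, 2712 and 2709 FPKM in the low-globin libraries.

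**Figure D5:**
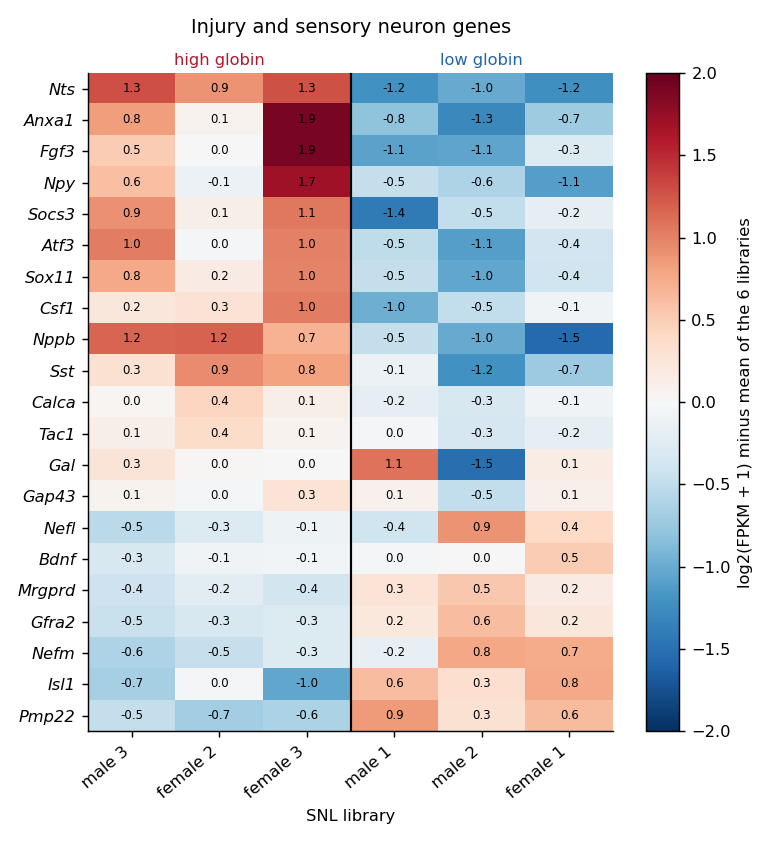
Level of 21 injury and sensory neuron genes in each SNL library as log2(FPKM + 1) minus the gene's mean over the 6 libraries (colour and printed number), with the high-globin libraries left of the black line and the low-globin libraries right of it. Nts, Nppb, Atf3 and Sox11 are higher and Mrgprd, Gfra2, Isl1 and Pmp22 lower in every high-globin library, while Gal, Gap43 and Nefl overlap.

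Markers of neuron classes were split as well. Of 20 nociceptor genes, all expressed, 5 (25.0%, against 17.9%) were apart and higher and 2 (10%, against 9.26%) apart and lower, and the median difference was -0.055. Nppb, the natriuretic peptide of itch neurons, was at 58.2, 58.9 and 41.9 FPKM in the high-globin libraries, against 17.95, 12.2 and 8.05 FPKM in the low-globin libraries. Sst, somatostatin, which the same class of neurons expresses, was at 40.9, 63.7 and 57.6 FPKM in the high-globin libraries, against 30.2, 13.6 and 19.3 FPKM in the low-globin libraries. Calca, the peptide CGRP of peptidergic nociceptors and the most abundant gene of the list, was at 4050.4, 5278 and 4277 FPKM in the high-globin libraries, against 3447, 3137 and 3731 FPKM in the low-globin libraries (difference 0.39 ± 0.14). The 2 lower genes were Mrgprd, a receptor of the Mas-related family, which differed by -0.66 ± 0.13, and Gfra2, a neurturin receptor, which differed by -0.69 ± 0.14. Both mark non-peptidergic nociceptors, but that class did not move as 1 group: Mrgprx1, another Mas-related receptor, was apart and higher (0.43 ± 0.10), and Plxnc1 and P2rx3 overlapped at 0.48 and 0.16. Of the genes that mark large-diameter neurons, Nefm, the medium neurofilament subunit, was apart and lower (299.5, 333.6 and 380.3 FPKM in the high-globin libraries, against 410.5, 784.5 and 770.6 FPKM in the low-globin libraries), while Cntnap2 and Kcnc1 of the 13 were apart and higher (15.4%, against 17.9% of all genes), Kcnc1 with 1 FPKM reached in high-globin libraries only. Among 17 pan-neuronal genes 7 (41.2%, against 17.9%) were apart and higher and 3 (17.6%, against 9.26%) lower, with Syn1, 1 of the 7, listed at 0 in male replicate 1. Isl1, a homeodomain factor of sensory neurons, was at 81.1, 126.8 and 62.3 FPKM in the high-globin libraries, against 196.7, 162.2 and 218.5 FPKM in the low-globin libraries. Stmn2, the most abundant gene of the list, was apart and higher by 0.24 ± 0.12, and the next 2, Uchl1 and Stmn3, overlapped.

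Over all expressed genes, the largest differences were looked up among genes with a mean of at least 5 FPKM and no library at 0. On the higher side these were mitochondrial transcripts, Alas2 and the pseudogene Rpl38-ps2. Globins were there too, but they set the ranking and are not a result. On the lower side, Htr5b, a serotonin receptor, was at 13.6, 4.01 and 0.187 FPKM in the high-globin libraries, against 26.1, 17.6 and 25.7 FPKM in the low-globin libraries. Rhbdd2, a membrane protein of the rhomboid family, was at 22.8, 22.3 and 18.02 FPKM in the high-globin libraries, against 64.2, 66.1 and 80.5 FPKM in the low-globin libraries, a difference of -1.69 ± 0.14 with little spread in either set. Suox, the sulphite oxidase, Slc25a10, a mitochondrial dicarboxylate carrier, and Slc52a3, a riboflavin transporter, followed at -1.52, -1.51 and -1.43. Aldh3b1, Ankrd55, Steap3 and As3mt completed these 10 together with Zrsr2, with differences between -1.43 and -1.26.

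The 22 naïve libraries had no part in the ranking and allowed a test across samples. Their FPKM table was normalized apart from that of the injured neurons, so levels are set side by side only roughly. The summed globin level was 0.369 to 70.5 FPKM with a median of 5.65, below the lowest injured library, and Alas2 was listed at 0 in 21 of 22. Hba-a1 alone made up a median of 93.2% of the naïve globin sum, whereas it was 31.5 to 49.8% in the injured libraries. Hbb-bt was listed at 0 in 17 of 22 naïve libraries. The naïve sum is thus mostly Hba-a1 at a low level, and whether it measures red cell carry-over was not tested. A fit to it does not repeat the contrast made after injury.

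Expression of 12892 genes was related to the log2 of the naïve globin sum plus 1 with limma, with sex as a term. At an adjusted p under 0.05 (Benjamini-Hochberg), 79 genes (0.613%) rose with globin and 8 (0.0621%) fell. Without the library with the highest globin sum, female replicate 4, these counts were 172 and 31, and with a pseudocount of 0.01 FPKM in place of 1 they were 8 and 2. Ganglion type, which the labels do not give per library, could not be entered as a term. The rising genes included 3 of 13 large-diameter neuron genes: Ldhb, a lactate dehydrogenase subunit, with a slope of 0.58 ± 0.11 log2 units per log2 unit of globin (limma adjusted p = 0.020), Nefm (0.38 ± 0.08, limma adjusted p = 0.037) and the sodium channel Scn1a (0.79 ± 0.18, limma adjusted p = 0.045). All 13 genes of that list had a positive slope, with a median of 0.51, beside 0.019 over all genes. Positive slopes were not particular to this list. They were found for 12 of 12 fibroblast and vascular, 11 of 11 mitochondrially encoded and 73 of 75 oxidative phosphorylation genes. The same held for 78 of 84 ribosomal protein, 16 of 17 satellite glia and 14 of 15 Schwann cell genes. Only 3 of 20 nociceptor and 10 of 29 injury genes had one, beside 7180 of 12892 genes in all. Of the red cell genes Car2 and Sptb rose, with slopes of 0.97 ± 0.21 and 0.34 ± 0.08 (limma adjusted p = 0.037 and 0.045). Of the macrophage genes Lyz2, lysozyme, rose (0.56 ± 0.12, limma adjusted p = 0.037). None of 84 ribosomal protein genes, 75 oxidative phosphorylation genes, 11 mitochondrially encoded genes, 29 injury genes, 17 satellite glia genes or 15 Schwann cell genes passed, and none of the platelet, neutrophil, lymphocyte, fibroblast, immediate early, nociceptor or pan-neuronal genes did at the adjusted threshold. At an unadjusted p under 0.05, limma gave 11 rising large-diameter neuron genes of 13, 8 rising fibroblast and vascular genes of 12, 9 rising satellite glia genes of 17, 8 rising Schwann cell genes of 15, 38 rising oxidative phosphorylation genes of 75, 3 rising ribosomal protein genes, 10 falling nociceptor genes, 1 rising and 3 falling injury genes and no mitochondrially encoded gene, beside 1385 rising and 616 falling among all genes. The 5 rising genes with the smallest p were Sgk1, Hnmt, Vamp8, H2-Eb1 and Gm5514, led by Sgk1, a serum-induced kinase, at a slope of 0.83 ± 0.12 (limma adjusted p = 0.0053). The 5 falling genes were Arxes2, Ap3s1, Arxes1, Rnase4 and Trmt112, led by Arxes2 at -0.54 ± 0.10 (limma adjusted p = 0.020). Nefm was lower in the high-globin set after injury and rose with globin in naïve neurons, in libraries of different sorts, and the difference between these results was not tested.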

How the data were processed

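RNA-seq of mouse sensory neurons was analysed in 6 libraries taken on day 8 after SNL and 22 naïve libraries. Reads of 75 bases were aligned by the authors to the mm10 assembly (STAR, with reads of several matches discarded), and the deposited FPKM were computed with Cufflinks with corrections for fragment bias, length and multi-reads. The sources name no tool versions. FPKM carries no counting error of its own, and the 30544219 to 50649730 input reads per SNL library set the precision. RIN, a score of RNA integrity, and the other deposited read numbers came from the authors' quality tables. The authors' tables of their own male to female comparisons (fold changes and p-values) were not used.

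Libraries were grouped by the rule on globin FPKM. Members and gene lists (21) were chosen with earlier results of these data known. A gene was kept as expressed where 2 or more SNL libraries of 1 sex, or 3 or more naïve ones, reached 1 FPKM; values were compared as log2(FPKM + 1). Since the groups were set by measured values, the contrast is described by differences, standard errors and overlap, with no test. Naïve libraries were tested with limma 3.58.1 (R 4.3.3, intensity trend, Benjamini-Hochberg). On simulated data for these 12892 genes, 78 of 100 genes with a slope of 0.5 and 99 of 100 with a slope of 1 were recovered, and 17 unchanged genes were called. Named genes were all expressed red cell genes, the 3 most abundant expressed members of each other list, the 10 largest differences in each direction among genes apart with a mean FPKM of at least 5 and no library at 0, and the 5 smallest p in each direction in naïve libraries. Gene IDs of the file were matched to GENCODE M21 (11262 of 11303 expressed) for length and GC. Scaling, filter, pseudocount, ranking genes, sex, replicate number and left-out libraries were varied. The replicates are pools of 2 mice, and the spread covers these pools only.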

Additional observations from a re-analysis of the deposited data

Results flagged for a closer look

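Of the named genes and list medians, 5 genes moved in opposite directions in the 2 sexes. For this, high-globin libraries were set against low-globin libraries of the same sex, with no overlap in either sex. Each sex had a set of 1 library on one side, a split that unchanged genes can also meet. The share of all expressed genes that meet this rule was not computed, so nothing is read from the count. The difference between the sexes was not tested. Sptb, the red cell spectrin beta chain, differed by 0.68 on the log2 scale in males and -0.32 in females. Slc25a38, a mitochondrial glycine carrier, differed by 0.28 in males and -0.36 in females. Cpox, an enzyme of haem synthesis, differed by -0.46 in males and 0.26 in females. Lck, a T cell kinase, differed by 0.48 in males and -0.52 in females. Stmn3, a tubulin-binding neuronal protein, differed by 0.15 in males and -0.035 in females.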

How the results depend on the processing

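With a mean FPKM of at least 5 required, 1341 genes were higher in every high-globin library. Setting the 2 highest against the 2 lowest libraries gave 3522 higher and 2582 lower genes, quantile normalization 1574 lower genes, and no expression filter 2167 lower genes. Leaving out each library in turn gave 2297 to 2981 higher and 1230 to 1819 lower genes. The median difference of all genes was -0.030 with median-of-ratios scaling, -0.062 with quantile normalization and -0.014 with length and GC classes. The median of ribosomal protein genes was 0.40 with median-of-ratios scaling, 0.68 with 2 libraries a set, 0.35 with length and GC classes and 0.46 to 0.66 with 1 library left out. That of oxidative phosphorylation genes was 0.29, 0.54 and 0.23 under the first 3 of these. Neutrophil genes had a median of 0.030 with no filter, which then covers all 15, and the 3 expressed ones had 2.61 and 3.08 with pseudocounts of 0.1 and 0.01, and 0.96 to 1.78 with 1 library left out. Without a filter satellite glia genes had a median of 0.32, with a mean FPKM of at least 5 immediate early genes had 0.13, and with median-of-ratios scaling pan-neuronal genes had -0.060. With length and GC classes, chosen after seeing the data, Acp1 and Hsp90aa1 turned to -0.076 and -0.023. The other values kept within the spread between replicates: 296 of 321 list medians and 1820 of 1918 values of named genes. Ranking by the alpha or by the beta globins alone gave the same sets, so values under these settings could not move. Differences of named genes could not move with a changed expression filter either. All these values are counted among those kept. Kept means a shift smaller than the standard deviation within the sets, and a list median can change sign within it. List medians changed sign with 1 library left out for 6 lists: without male replicate 1 to -0.018 for red cell membrane, -0.048 for large-diameter neuron (0.29 with all libraries), -0.028 for Schwann cell and 0.10 for lymphocyte genes, without male replicate 3 to -0.13 for Schwann cell and 0.085 for lymphocyte genes, without male replicate 2 to 0.041 for nociceptor genes, without female replicate 3 to 0.051 for nociceptor and 0.13 for lymphocyte genes, and without female replicate 1 to 0.13 for lymphocyte genes and 3.05e-05 for haem and iron genes. The causes were not tested.

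The replicate numbers did not pair the injured samples: deviations of same-numbered male and female libraries correlated at 0.26, -0.21 and 0.20. Only replicate 2 has libraries in both sets, so a fit with the replicate block rests on that pair and gives no count of genes apart. The medians were then 1.78 for neutrophil, 0.77 for lymphocyte, 0.40 for satellite glia, 0.32 for nociceptor, -0.18 for large-diameter neuron, 0.80 for ribosomal protein, 0.62 for oxidative phosphorylation and 0.61 for mitochondrially encoded genes.

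In naïve libraries the counts rising and falling with globin were 8 and 2 with a pseudocount of 0.01, 37 and 2 with no filter, 120 and 15 with RIN as a term, 172 and 31 without the library with the most globin, and 1 and 1 with the replicate block, under which none of the 10 named genes passed (limma adjusted p 0.089 to 0.31); same-numbered naïve libraries correlated at -0.16 to 0.28 and were not paired. Falling genes numbered 14 with a mean FPKM of at least 5, 20 with no sex term, 22 with median-of-ratios scaling and 41 with quantile normalization. Of 109 values of named genes in naïve libraries, 92 stayed past the threshold and 17 did not. FPKM hold no counts, and levels near 1 FPKM or listed at 0 limit the lists of rare cell types.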
